A study of Mus musculus with 5 samples.

Results

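The mitochondrial genome of the mouse encodes 13 proteins, and 6 of them belong to respiratory complexes III, IV and V: mt-Co1, mt-Co2 and mt-Co3 of cytochrome c oxidase (complex IV), mt-Atp6 and mt-Atp8 of the ATP synthase (complex V), and mt-Cytb of complex III. Their 6 transcripts were described here among the 135276 transcripts counted in ribosome profiling (RIBO-seq, sequencing of the mRNA fragments that ribosomes protect from RNase) of mouse embryonic stem cells (mESCs). The members were chosen by name, with earlier results of these libraries known, the difference between the methods included. That difference is therefore given as a description, with no test.

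The labels of the 5 libraries give no genotype or line name for the mESCs and list all as untreated. The cells were grown undifferentiated with serum and LIF, exposed to the elongation inhibitor cycloheximide before harvest, and lysed. The lysates were digested with RNase I in the presence of sBlock, an anisomycin-based reagent that holds nascent chains on cytosolic ribosomes. For standard RIBO-seq (n = 3), centrifugation over sucrose collected the ribosomes. In AHARIBO RIBO-seq (n = 2) ribosomes were captured on beads through nascent chains carrying L-azidohomoalanine (AHA), a methionine analog that is clicked to biotin; the AHA dose of these libraries is not restated in the methods. The study describes its standard libraries as made from the input, which would make AHA exposure and methionine depletion common to both methods. The titles of the libraries name only the cells, the method and the replicate number.

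The mRNAs of mitochondrial DNA are translated inside the organelle, by mitochondrial ribosomes that descend from bacterial ones and that cycloheximide does not block. Their products are very hydrophobic, are inserted into the inner membrane while they are made, and join nuclear-encoded subunits that arrive from the cytosol. mt-Co1, mt-Co2 and mt-Co3 form the core of cytochrome c oxidase, which passes electrons from cytochrome c to oxygen. mt-Cytb carries the b-type hemes of complex III, and mt-Atp6 lines the proton path through the membrane part of the ATP synthase, where mt-Atp8 is a small neighbour.

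The opening 30 bases of each mRNA are shown to let a reader tell the 6 apart, and the start codon, at which each Gencode record begins, is printed in capitals. They are on the plus strand of the mitochondrial chromosome in GRCm38, and each record is coding throughout, without leader or trailer.
mt-Co1: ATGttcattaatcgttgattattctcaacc
mt-Co2: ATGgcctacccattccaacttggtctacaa
mt-Co3: ATGacccaccaaactcatgcatatcacata
mt-Atp6: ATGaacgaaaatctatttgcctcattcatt
mt-Atp8: ATGccacaactagatacatcaacatgattt
mt-Cytb: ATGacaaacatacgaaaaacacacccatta
mt-Co1 lies at chrM:5328-6872 (1545 nt), mt-Co2 at chrM:7013-7696 (684 nt), mt-Atp8 at chrM:7766-7969 (204 nt), mt-Atp6 at chrM:7927-8607 (681 nt), mt-Co3 at chrM:8607-9390 (784 nt) and mt-Cytb at chrM:14145-15288 (1144 nt). mt-Atp8 and mt-Atp6 overlap by 43 nt, so the opening run of mt-Atp6 above is at the same time the mt-Atp8 sequence from its base 162, and mt-Atp6 shares 1 nt with mt-Co3. mt-Co1, mt-Co2, mt-Atp6 and mt-Atp8 end in taa. mt-Co3 and mt-Cytb end in a single t of the stop codon, which the poly(A) tail completes in mitochondrial mRNAs. The proteins hold 514 (mt-Co1), 227 (mt-Co2), 261 (mt-Co3), 226 (mt-Atp6), 67 (mt-Atp8) and 381 residues (mt-Cytb) in the mitochondrial code.

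Counts without duplicate reads summed to between 6403651 and 11150527 per library, and pluripotency markers marked the cells in both methods. The 8 listed (such as Pou5f1, at 261 ± 14.0 CPM in standard and 226 ± 16.8 in AHARIBO RIBO-seq, SD) summed to between 1158 and 1360 CPM in the 5 libraries. Fibroblast markers summed to at most 4.48 CPM, endoderm markers to at most 3.97 CPM and neural markers to at most 43.9 CPM, of which Tubb3 gave 36.5 in standard RIBO-seq. CPM are counts per 1000000 counts summed over all transcripts, adjusted with TMM factors. Transcripts of one gene share sequence and a read may be counted at several, so these totals are not numbers of reads. Over 1 transcript per gene they were between 2488393 and 4188333, which makes every level in CPM here lower than on that base.

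Footprints of the 6 mRNAs were found in all 5 libraries and were lower in AHARIBO RIBO-seq. Summed over the 6, they gave 464, 475 and 529 CPM in the standard libraries and 131 and 129 CPM in the AHARIBO libraries. The standard mean was 490 ± 34.7 CPM (SD, n = 3) and the AHARIBO mean 130.2 ± 1.30 CPM (SD, n = 2). The log2 difference, AHARIBO minus standard, was -1.91, and the within-method SD was 0.082. The 6 mRNAs took 0.0461%, 0.0473% and 0.0521% of the counts over all transcripts in the standard libraries and 0.0134% and 0.0130% in the AHARIBO libraries. Over 1 transcript per gene the shares were 0.120%, 0.124% and 0.134% and then 0.0358% and 0.0338%. The libraries are bulk libraries, so fewer cells carrying such footprints and fewer footprints per cell cannot be told apart.

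mt-Co1, the largest subunit of cytochrome c oxidase and the one that holds its oxygen-reducing centre, had the highest level of the 6 in CPM and, without duplicate reads, also per kb. Per kb of transcript it reached 120.1, 126 and 140.7 CPM in the standard libraries and 35.4 and 36.6 CPM in the AHARIBO libraries. Every standard library was above both AHARIBO libraries. The mean level was 199 ± 16.5 CPM in standard and 55.6 ± 1.30 CPM in AHARIBO RIBO-seq, a 3.58-fold difference, and the fitted log2 difference was -1.84 (SE 0.086).

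mt-Co2, which receives electrons from cytochrome c, reached 92.4, 83.9 and 97.9 CPM per kb in the standard libraries against 23.0 and 21.3 in the AHARIBO libraries. The means were 62.5 ± 4.81 and 15.2 ± 0.827 CPM, with a fitted log2 difference of -2.03 (SE 0.100). mt-Co3, the remaining core subunit, reached 101.0, 116 and 111.5 CPM per kb against 29.1 and 28.9. Its AHARIBO libraries were almost equal, while its means of 85.8 ± 5.93 and 22.8 ± 0.118 CPM differed by a fitted log2 difference of -1.91 (SE 0.093).

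mt-Atp6 reached 86.4, 83.6 and 98.5 CPM per kb in the standard libraries and 24.9 and 23.6 in the AHARIBO libraries. Its means were 61.0 ± 5.40 and 16.5 ± 0.634 CPM, and its fitted log2 difference was -1.87 (SE 0.099). mt-Atp8, the shortest of the 6 and the one with the fewest reads, reached 80.2, 66.6 and 70.0 CPM per kb against 19.3 and 21.1. These levels rest on 146, 123 and 90 reads in the standard and on 45 and 43 reads in the AHARIBO libraries, and its fitted log2 difference of -1.84 had the largest error (SE 0.157). Although both coding sequences lie on the same transcript and overlap, mt-Atp8 per kb over mt-Atp6 per kb was 0.812 ± 0.110 in standard and 0.833 ± 0.0829 in AHARIBO RIBO-seq. The methods overlapped in that ratio without duplicate reads. With duplicate reads kept they did not, at 3.085 to 5.596 in standard and 1.784 to 2.363 in AHARIBO libraries.

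mt-Cytb, the one subunit of complex III that mitochondrial DNA encodes, had the lowest level per kb in every library. It reached 53.6, 54.5 and 66.4 CPM per kb in the standard libraries and 14.8 and 13.3 in the AHARIBO libraries. Its means of 66.6 ± 8.20 and 16.1 ± 1.27 CPM gave a fitted log2 difference of -2.03 (SE 0.103). Standard replicate 3 was the highest of the standard libraries for mt-Co1, mt-Co2, mt-Atp6 and mt-Cytb, but not for mt-Co3 and mt-Atp8.

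**Figure D1:**
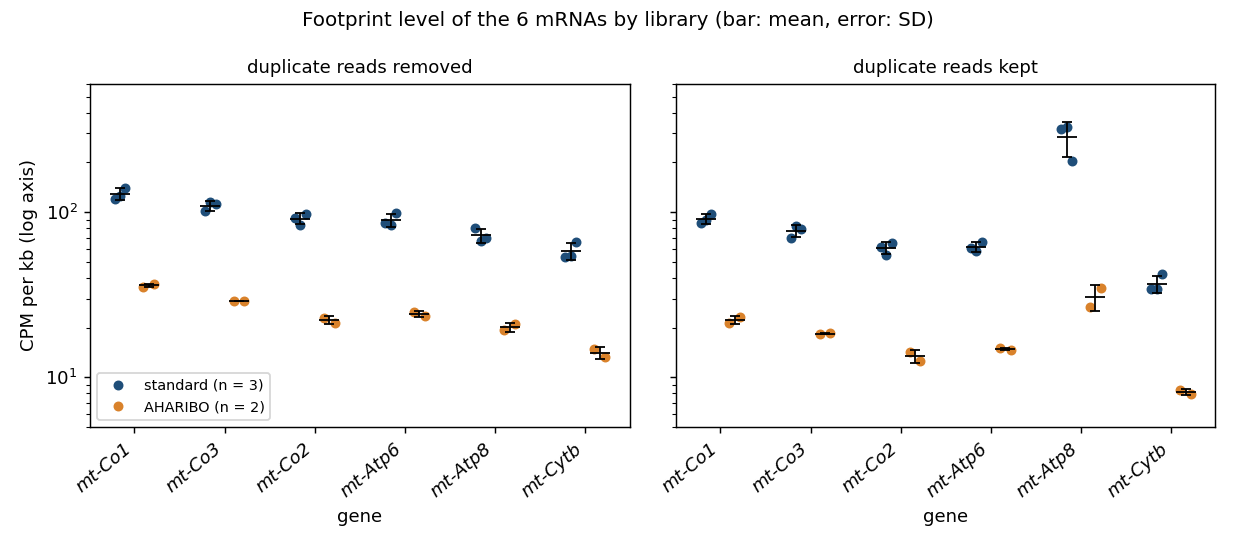
Level of the 6 mRNAs in CPM per kb of transcript on a log axis, one point per library (3 standard, 2 AHARIBO), with the mean and SD. On the left, without duplicate reads, all 6 mRNAs lie lower in AHARIBO; on the right, with duplicate reads kept, mt-Atp8 rises above the others, to 283.5 ± 69.3 CPM per kb in standard libraries.

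For all 6 mRNAs both AHARIBO libraries lay below all 3 standard libraries, which held for 18.3% of the 18717 genes tested. Because the members were chosen with this contrast known, nothing is read from that count. Without duplicate reads, the fitted log2 differences of the 6 lay between -2.03 and -1.84 (median -1.89), with SEs from 0.086 to 0.157, and the median over all genes tested was -0.02. With duplicate reads kept, mt-Atp8 had -3.22, and the other 5 lay between -2.18 and -2.03. Differences between the 6 in this response were not tested.

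Without duplicate reads, the order of levels per kb in standard RIBO-seq was mt-Co1, mt-Co3, mt-Co2, mt-Atp6, mt-Atp8 and mt-Cytb. Of the neighbours in that order, mt-Co2 and mt-Atp6 overlapped between libraries (91.4 ± 7.03 and 89.5 ± 7.94 CPM per kb), and the other neighbours did not. The gap was smallest between mt-Atp8, at 66.55 CPM per kb in standard replicate 2, and mt-Cytb, at 66.43 in standard replicate 3. In AHARIBO RIBO-seq mt-Atp6 came before mt-Co2, at 24.3 ± 0.930 and 22.2 ± 1.21 CPM per kb, and the rest of the order was the same. With 43 reads behind mt-Atp8 in AHARIBO replicate 2, its exact Poisson 95% interval of 15.2 to 28.4 CPM per kb, which covers counting error only, took in both mt-Atp6 and mt-Co2. In AHARIBO replicate 1 the interval of mt-Atp8, 14.1 to 25.8 CPM per kb, took in mt-Cytb at 14.8. With duplicate reads kept, mt-Atp8 came first in both methods, and 10 of the 15 pairs of mRNAs kept their order in standard and 11 in AHARIBO RIBO-seq.

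Without duplicate reads, the parts of the single mRNAs in the reads of the 6 differed between the methods by at most a few percentage points. mt-Co1 gave 40.6 ± 0.598% of them in standard and 42.7 ± 1.42% in AHARIBO RIBO-seq. mt-Co3 gave 17.6 ± 1.36% and 17.5 ± 0.0830%, mt-Atp6 12.5 ± 0.398% and between 12.4% and 12.9%, and mt-Atp8 3.03 ± 0.437% and 3.16 ± 0.225%. mt-Co2 gave 12.8 ± 0.772% and 11.6 ± 0.519%, and mt-Cytb 13.6 ± 0.695% and 12.3 ± 0.852%. The parts sum to 100% and are not independent of each other, and their differences were not tested. With duplicate reads kept, mt-Atp8 gave 15.1 ± 3.88% in standard and 7.47 ± 1.21% in AHARIBO RIBO-seq, mt-Co2 10.8 ± 0.884% and 10.96 ± 1.20%, and mt-Cytb 10.97 ± 1.15% and 11.2 ± 0.703%. The proteins also differ in methionine, the residue AHA stands in for. mt-Co1 has the most methionines (31) and mt-Atp8 the fewest (3), and both had a fitted log2 difference of -1.84 without duplicate reads, against -2.03 and -3.22 with duplicate reads kept. mt-Co2 (16 methionines) and mt-Cytb (19) had -2.03, and mt-Co3 (9) and mt-Atp6 (14) lay between, without duplicate reads. A relation with methionine content was not tested.

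mt-Atp8 stood apart from the others in its duplicate reads, the reads that the authors removed as repeats of another read by a criterion not given in the sources used here. In the standard libraries 86.0%, 88.6% and 81.1% of its reads were removed as duplicates, and in the AHARIBO libraries 61.2% and 65.9%. The shares of the other 5 mRNAs lay between 11.7% and 22.2% in standard and between 4.58% and 14.1% in AHARIBO libraries. Pooled over all transcripts other than the 6, the share lay between 43.3% (standard replicate 2) and 47.7% (AHARIBO replicate 1), above those of the other 5 mRNAs. The median over 24667 transcripts with at least 100 reads on average, duplicates included, lay between 17.1% and 21.04% in the 5 libraries. mt-Atp8 exceeded 98.4% to 99.2% of these transcripts in standard and 90.2% to 93.5% in AHARIBO libraries. All 6 mRNAs had a lower share in both AHARIBO libraries than in any standard library, which held for 8.15% of those transcripts. Their read counts were lower there too, and the part of that in the duplicate share was not tested.

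With duplicates kept, mt-Atp8 had 1043, 1083 and 476 reads in the standard libraries and 116 and 126 in the AHARIBO libraries. Its level per kb then led the 6 in both methods (283.5 ± 69.3 and 30.7 ± 5.55 CPM per kb), and its ratio to mt-Atp6 was 4.66 ± 1.37 in standard and 2.07 ± 0.409 in AHARIBO RIBO-seq. Its fitted log2 difference became -3.22 (SE 0.203), while those of the other 5 lay between -2.18 and -2.03. Molecular identifiers are not mentioned in the sources used here, and from the counts alone copies made by PCR and separate footprints with the same ends cannot be told apart.

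**Figure D2:**
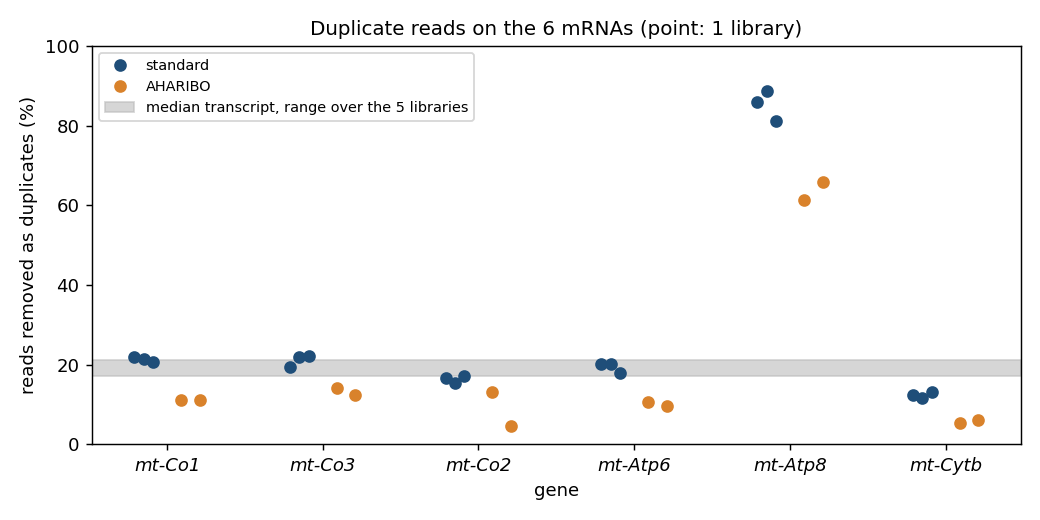
Share of reads removed as duplicates on each mRNA, in percent of its reads, one point per library; the grey band is the range over the 5 libraries of the median transcript (17.1% to 21.04%). mt-Atp8 lies between 61.2% and 88.6%, above the other 5 mRNAs in every library.

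Pieces of mitochondrial DNA have been inserted into the nuclear chromosomes, and Gencode lists some as pseudogenes. Of the 30-nt windows of each mRNA, about the length of a footprint, nuclear transcripts held 100.0% for mt-Co2, 99.9% for mt-Co3, 99.5% for mt-Atp6, 64.8% for mt-Co1, 8.0% for mt-Atp8 and 7.4% for mt-Cytb. Those of mt-Atp8 are the 14 windows inside its overlap with mt-Atp6. A single stretch of chromosome 1, on its minus strand, holds 4 of these pseudogenes. Gm28661 at chr1:24614885-24615565 is identical to mt-Co2 over 681 nt, Gm10925 at chr1:24613974-24614651 to mt-Atp6 over 678 nt and Gm28437 at chr1:24613189-24613971 to mt-Co3 over 783 nt. Their opening bases are therefore the runs already shown for mt-Co2, mt-Atp6 and mt-Co3.

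The copies of mt-Co1 and mt-Cytb are shown because they differ from the mitochondrial mRNA, with the differing bases in capitals on both lines. Positions count from 1 at the first base of the mRNA, and each token gives the mRNA's base first. Gm29216 (chr1:24615706-24616197, minus strand) faces the last 492 nt of mt-Co1 with 6 differences, an identity of 98.8%, and all 6 lie in the run from base 1054: T1056A, C1057T, A1059G, A1060G, C1062A and A1066T.
mt-Co1 from base 1054: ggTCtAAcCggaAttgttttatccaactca
Gm29216: ggATtGGcAggaTttgttttatccaactca
Gm13340 (chr2:22588103-22589647, minus strand) faces the whole of mt-Co1 with 37 differences over 1545 nt (97.6% identity), of which C54A and A60G are in the run from base 44.
mt-Co1 from base 44: tcggaaccctCtatctActattcggagcct
Gm13340: tcggaaccctAtatctGctattcggagcct
Gm11410 (chr4:80003989-80005131, plus strand) faces mt-Cytb with 82 differences over 1143 nt (92.8% identity), the first of which, A1G, changes the start codon, followed by G14A and C24T.
mt-Cytb: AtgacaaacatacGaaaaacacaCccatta
Gm11410: GtgacaaacatacAaaaaacacaTccatta

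The counts deposited for the copies followed the shared sequence. Gm28661 had 562, 520 and 422 reads in the standard libraries and 177 and 145 in the AHARIBO libraries, against 564, 520 and 422 and then 180 and 146 for mt-Co2. No library differed by more than 3 reads between Gm28661 and mt-Co2, 4 reads between Gm10925 and mt-Atp6, or 1 read between Gm28437 and mt-Co3. Gm13340, which holds 46.6% of the windows of mt-Co1, had between 44.2% and 47.9% of its count, and Gm13341 on chromosome 2, which holds 48.1% of those of mt-Co2, had between 45.0% and 53.4%. Gm29216, at 29.7% the copy with the smallest share above 10%, had between 33.9% and 39.5% of the mt-Co1 count. Gm11410 lies just under that limit at 7.4% and had between 6.58% and 8.98% of the mt-Cytb count; it was named after its values were seen.

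Reads of mt-Co2, mt-Co3 and mt-Atp6 and of their identical copies cannot be told apart in these counts. Without duplicate reads, mt-Cytb and mt-Atp8, which share few windows with nuclear transcripts, had fitted log2 differences of -2.03 and -1.84. These lay within the range of the 4 that share most of theirs. The copies then had fitted log2 differences between -2.05 (Gm28661) and -1.65 (Gm29216) where they held at least 10% of the windows. With duplicate reads kept, mt-Cytb had -2.17, within the -2.18 to -2.03 of the 4, and mt-Atp8 had -3.22, outside it.

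**Figure D3:**
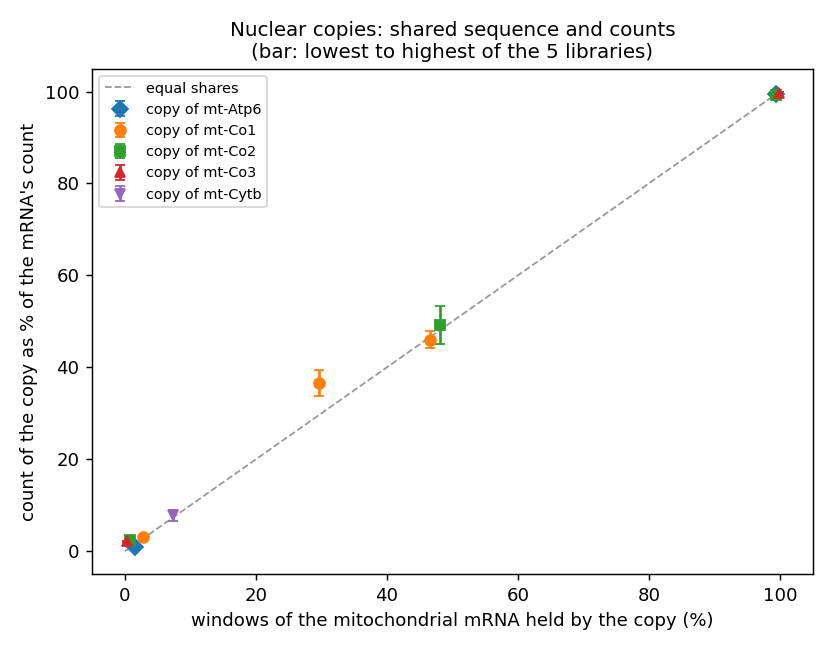
Nuclear copies of the mRNAs, with the share of the mRNA's 30-nt windows that the copy holds on the x axis (%) and the copy's count as a percentage of the mRNA's count on the y axis (%). Marks span the lowest to the highest of the 5 libraries and lie near the dashed line of equal shares, from Gm11410 at 7.4% to Gm28437 at 99.9% of windows.

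The nuclear-encoded partners of the same complexes, translated by cytosolic ribosomes, had smaller fitted differences, none of which reached those of the 6. All 39 listed subunits, counting the inhibitory factor Atpif1 and the subunit-like Cox7a2l, passed the filter on low counts. They entered the quasi-likelihood test of edgeR, with Benjamini-Hochberg adjustment over all transcripts tested. At an adjusted p under 0.05, 8 were lower in AHARIBO RIBO-seq, 0 were higher and 31 did not pass. The background was 3.13% of genes lower and 3.05% higher. At an unadjusted p under 0.05, 15 were lower and 1 was higher, and DESeq2 called 3 lower and 0 higher. The median log2 difference of the 39 was -0.13, with a range of -0.44 to 0.18, against -0.02 over all genes. The 8 calls rest on few libraries: 0 passed without AHARIBO replicate 1, 5 without standard replicate 1 and 4 without standard replicate 3.

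Of the 12 nuclear subunits listed for cytochrome c oxidase, 4 passed as lower in edgeR, beside 3.13% of all genes, and 2 in DESeq2. Cox8a was at 75.9 ± 2.24 CPM in standard and 57.8 ± 7.51 in AHARIBO RIBO-seq (log2 difference -0.40, SE 0.085, edgeR adjusted p = 0.00292), and Cox6a1 at 70.2 ± 2.07 and 54.5 ± 2.52 CPM (-0.36, SE 0.082, adjusted p = 0.00482). Cox7c and Cox5a, which were also among its most abundant subunits, fell by 0.33 and 0.28 on the log2 scale. Cox4i1, the most abundant and a subunit that regulates the enzyme, had a log2 difference of -0.24 that did not pass (adjusted p = 0.0744).

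In complex III 2 of 9 passed as lower in edgeR, both small subunits, and 0 passed in DESeq2. Uqcr11 was at 32.1 ± 2.58 and 23.8 ± 1.29 CPM (log2 difference -0.44, SE 0.097, edgeR adjusted p = 0.00388), the lowest difference among the 39, and Uqcrq fell by 0.31 on the log2 scale. The most abundant, the core protein Uqcrc1 (125 ± 8.97 and 116 ± 1.03 CPM), the cytochrome Cyc1 (97.9 ± 6.47 and 82.0 ± 4.36 CPM) and the Rieske iron-sulfur protein Uqcrfs1 (61.6 ± 5.60 and 57.7 ± 1.24 CPM), did not pass.

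In the ATP synthase 2 of 18 passed as lower in edgeR and 1 in DESeq2. The 2 were Atp5d of the central stalk (94.5 ± 4.64 and 73.4 ± 7.18 CPM, log2 difference -0.36, SE 0.082, edgeR adjusted p = 0.00503) and Atp5g3 of the rotating membrane ring, which fell by 0.28. The catalytic subunit Atp5b was the most abundant of the 39, at 358 ± 13.0 CPM in standard and 313 ± 25.4 in AHARIBO RIBO-seq, and its log2 difference of -0.19 did not pass (adjusted p = 0.149). Atp5a1 (189 ± 13.4 and 184.5 ± 0.975 CPM) and Atp5f1 of the peripheral stalk (100.0 ± 0.489 and 91.9 ± 1.46 CPM) did not pass either.

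**Figure D4:**
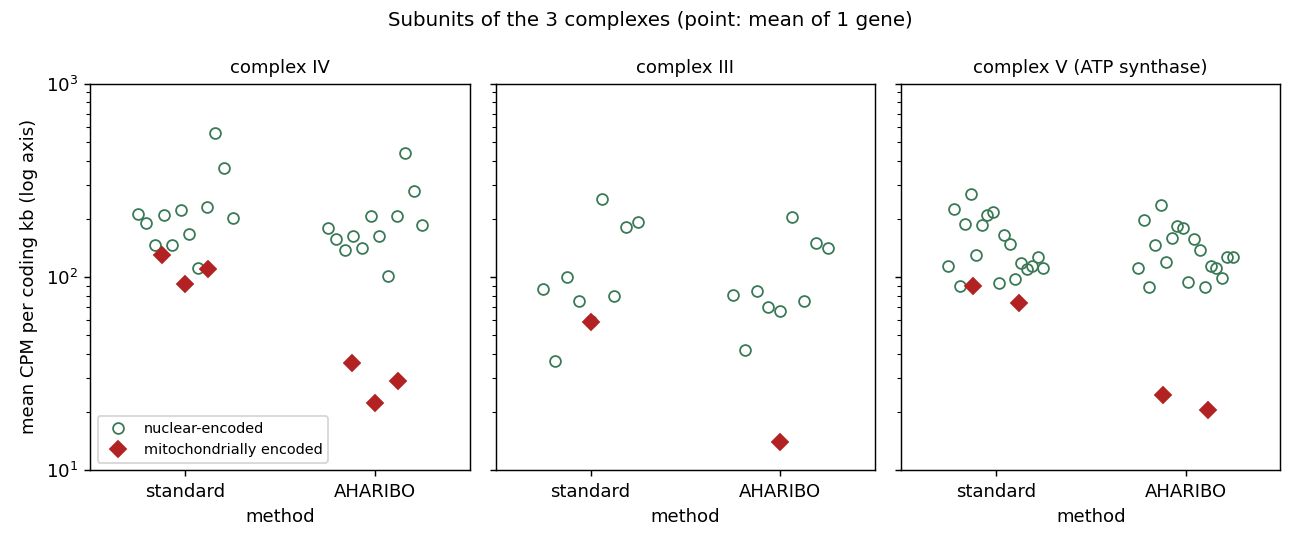
Mean level in CPM per coding kb on a log axis of each subunit of the 3 complexes in each method, with nuclear-encoded subunits as open circles and the 6 mitochondrially encoded ones as filled diamonds. The diamonds lie at the lower edge of the circles in standard libraries (mt-Co1 at 129) and below all circles in AHARIBO libraries (mt-Co1 at 36.1).

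Per coding kb, with complete stop codons left out, the level of mt-Co1 in standard RIBO-seq (129 ± 10.7 CPM per kb) was above 1 of the 12 genes listed as nuclear subunits of its complex, whose median was 206. That 1 was the subunit-like Cox7a2l at 111.5, and the next lowest, Cox6b1, was at 146.5. The level of mt-Cytb (58.2) was above 1 of 9, whose median was 86.9. mt-Atp6 (89.9 ± 7.97) was level with the lowest of 18, Atp5c1 at 89.8. The means of mt-Co2 (91.8 ± 7.07), mt-Co3 (109.4 ± 7.57) and mt-Atp8 (73.3 ± 7.19) were below those of all nuclear subunits of their complexes, the lowest of which in complex IV, Cox7a2l at 111.5, lay within the spread of mt-Co3. In AHARIBO RIBO-seq the means of all 6 were below those of all nuclear subunits of their complexes. The median nuclear subunit of complex IV was 1.60 times the level of mt-Co1 in standard and 4.74 times in AHARIBO RIBO-seq, and that of the ATP synthase 1.43 and 5.18 times the level of mt-Atp6. Nuclear transcripts also count reads in their untranslated parts, so these levels are set against coding length with that excess included.

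Factors that build the complexes or act on the 6 mRNAs gave 1 call in 51, beside the 3.13% of all genes called lower and 3.05% called higher, so the count does not set them apart. Of 29 assembly factors of complexes III, IV and V, 1 was lower and 0 were higher (unadjusted p under 0.05 in edgeR: 3 lower and 0 higher; DESeq2: 0 and 0). That one was Cox14, which is needed for mt-Co1 synthesis and assembly, at 21.6 ± 1.36 and 16.3 ± 0.135 CPM (log2 difference -0.42, SE 0.108, edgeR adjusted p = 0.0158). It did not pass without standard replicate 1, standard replicate 2 or AHARIBO replicate 1.

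Of 22 factors for expression of the mitochondrial genome, 0 passed in either direction (unadjusted p under 0.05 in edgeR: 2 lower and 4 higher; DESeq2: 0 and 0), and their median log2 difference was 0.01. The most abundant were the mRNA-binding Lrpprc, which keeps mitochondrial mRNAs stable (83.9 ± 10.4 and 96.0 ± 6.08 CPM, log2 difference 0.19), the mitochondrial elongation factor Tufm (72.0 ± 3.25 and 63.5 ± 1.25 CPM, -0.18) and Tbrg4 (52.1 ± 4.85 and 50.4 ± 0.965 CPM, -0.06).

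The other mRNAs of the mitochondrial genome, which encode 7 subunits of complex I, were all lower in AHARIBO RIBO-seq (7 of 7 at an adjusted p under 0.05 in edgeR, beside the 3.13% of genes), with log2 differences from -2.19 for mt-Nd4l to -0.77 for mt-Nd4. The range of the 6 lies inside that range through mt-Nd4l alone. The next lowest of the 7, mt-Nd3, was at -1.56, less reduced than any of the 6, and the median of the 7 was -1.44. The 6 held 75.2%, 73.3% and 76.7% of all reads on the 13 mitochondrial coding transcripts in the standard libraries and 62.5% and 64.8% in the AHARIBO libraries, which did not overlap.

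**Figure D5:**
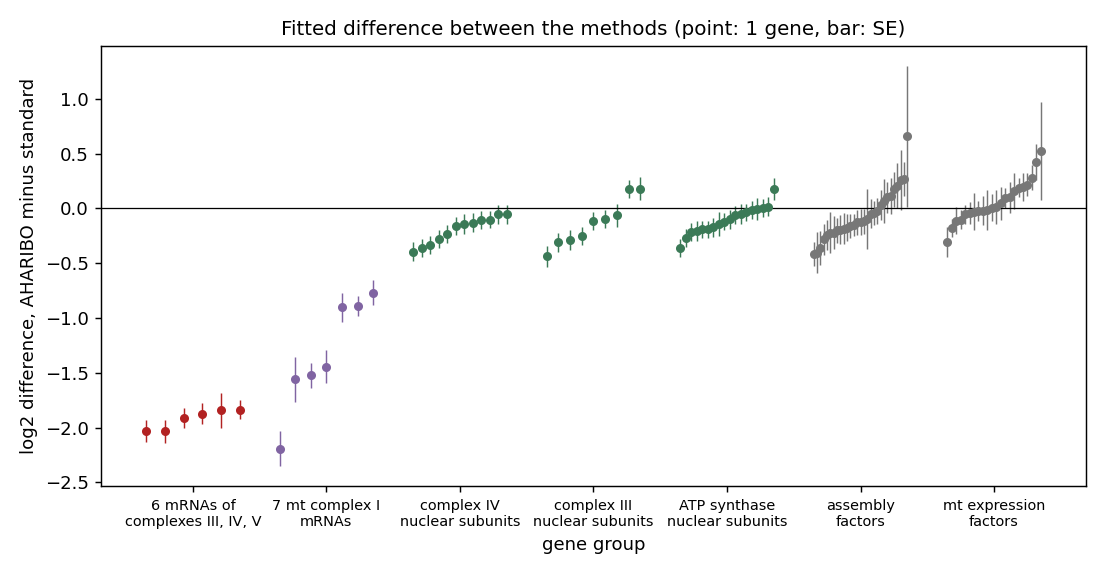
Fitted log2 difference, AHARIBO minus standard, of each gene with its SE, by gene group; the line at 0 marks no difference. Without duplicate reads, the 6 mRNAs lie between -2.03 and -1.84, the complex I mRNAs between -2.19 and -0.77, and the 39 nuclear subunits between -0.44 and 0.18.

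The rRNAs of the mitochondrial ribosome, mt-Rnr1 and mt-Rnr2, were looked at after their values were seen. mt-Rnr1 was at 186, 192 and 253 CPM in the standard and at 228 and 312 CPM in the AHARIBO libraries, and mt-Rnr2 at 245, 258 and 314 and at 276 and 368 CPM. Both overlapped between the methods, with fitted log2 differences of 0.37 (SE 0.095) and 0.24 (SE 0.090), after reads matching rRNA had been removed by the authors.

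Across the 5 libraries, the genes whose centred log2 CPM lay nearest to that of the 6 summed were compared by the root mean square distance over 7917 genes with at least 10 CPM on average that share no window with the 6. The nearest 5 were the pseudogene Gm10222 (0.16), mt-Nd4l (0.16), mt-Nd1 (0.22), mt-Nd2 (0.28) and the pseudogene Gm28439 (0.45). Each of the 6 lay within 0.14 of the sum, but they are parts of that sum, so their distances cannot be set against those of other genes. Gm10222, on chromosome 1, had 15.6, 14.8 and 17.6 CPM in the standard and 3.33 and 3.60 CPM in the AHARIBO libraries, close to the 15.9, 14.8 and 17.9 and the 3.33 and 3.70 CPM of mt-Nd4l.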

How the data were processed

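Read counts per transcript, deposited by the authors with and without duplicate reads, were at hand for 3 standard and 2 AHARIBO libraries that the labels call biological replicates. Per their methods and processing notes, reads were trimmed (Trimmomatic 0.36), cleared of rRNA and tRNA matches, aligned to Gencode M17 transcripts (STAR) and cleared of antisense reads. How reads matching several transcripts were counted is not given in the sources used here. Counts without duplicates were used, with those including duplicates as an alternative, and 0 columns were left unused.

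CPM used TMM factors over all transcripts (edgeR 4.0.16, R 4.3.3). The 66972 transcripts with 1 CPM in at least 1 library entered edgeR's quasi-likelihood model with the method as the one term. Fitted log2 differences and approximate SEs come from it, and DESeq2 1.42.0 was the alternative test. A gene was taken as its transcript with the highest mean CPM. Names, coordinates and sequences came from Gencode M21 (134952 of the deposited transcripts matched by identifier), and the printed runs were checked in the RefSeq GRCm38 genome. Counts were simulated for these 66972 transcripts, with changes set in 200 drawn only from the better-covered ones. There edgeR recovered 100.0% of 4-fold and 82.0% of 2-fold changes and called 7 unchanged transcripts, and DESeq2 recovered 96.0% and 53.0% and called 0. Recovery at transcripts with few reads was not simulated, nor were reads counted at several transcripts.

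The members and gene lists were chosen with earlier results of these data known. Named were the 6 members, nuclear copies with at least 10% of a member's windows, per list the 3 most abundant genes and the up to 3 strongest calls in each direction without overlap, the extreme complex I mRNAs, and the 5 genes nearest to the members.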

Additional observations from a re-analysis of the deposited data

How the results depend on the processing

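The summed log2 difference of -1.91 lay between -1.95 and -1.85 when each library was left out in turn and moved beyond the within-method SD only with duplicate reads kept (-2.20, and -2.08 without mt-Atp8, a choice made after seeing the data). The 6 single differences lay between -2.12 and -1.75 under the other normalizations, with the reads of nuclear copies added (mt-Co1, mt-Co2, mt-Co3 and mt-Atp6, which have copies past the 10% limit) and with each library left out: mt-Co1 -1.89 to -1.77, mt-Co2 -2.09 to -1.98, mt-Co3 -1.97 to -1.87, mt-Atp6 -1.92 to -1.81, mt-Atp8 -1.91 to -1.75 and mt-Cytb -2.12 to -1.94 without 1 library. With duplicates kept they were -2.03 (mt-Co1), -2.18 (mt-Co2), -2.07 (mt-Co3), -2.05 (mt-Atp6), -3.22 (mt-Atp8) and -2.17 (mt-Cytb). The cause was not tested.

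Nuclear subunits called were 8, and 0 to 10 without 1 library, 3 with DESeq2 and 0 at a log2 change past 1.5 with an adjusted p of 0.01 or less, where assembly and expression factors fell from 1 to 0 (also 0 with DESeq2, 0 to 2 without 1 library) and complex I mRNAs from 7 to 3 (7 without any 1 library). All transcripts called numbered 3021 (1520 higher, 1501 lower), 312 with DESeq2, 105 at that threshold and 510 to 3829 without 1 library; without TMM the split was 1978 higher and 1048 lower. The replicate numbers pair no libraries by the labels, and same-numbered libraries correlated at 0.0423 and -0.0762; with a replicate block the summed difference was -1.85, nuclear subunits called were 3 and all transcripts called 1792.

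Shared windows were 69.7% and 60.5% of mt-Co1 and 13.0% and 3.7% of mt-Cytb at 25 and 35 nt. Depth limits mt-Atp8 most, with 43 to 146 reads per library. Only 2 AHARIBO libraries were analysed.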
